A study of Mus musculus with 8 samples.

Results

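The doxycycline effect shared by both mutant TFII-I lines was measured over all 8 arrays of the series, 4 from cells given doxycycline for 24 h and 4 from cells without it, with the line kept as a term of the model. The cells were TEC100.4, an immortalized mouse line of cortical thymic epithelial origin, in which doxycycline induces a mutant of the transcription factor TFII-I, the product of Gtf2i. One line carried the mutant β isoform and the other the mutant δ isoform, and each was grown with and without the drug, which gave 4 groups of 2 arrays: treated β, untreated β, treated δ and untreated δ. Groups follow the sample titles; for cells without the drug the genotype label speaks of the wild-type protein, although the title gives the mutant line. All cells grew in RPMI with serum, penicillin and streptomycin. The sources used here give no strain or age for the line. No culture without an inducible mutant received doxycycline, so the drug and the protein it induces cannot be told apart. Whether the 2 arrays of each group stand for independent cultures is not stated, and the p-values then cover only variation among these arrays, possibly of technical origin.

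TFII-I is a ubiquitous multifunctional transcription factor that binds initiator and E-box sequences, shuttles between cytoplasm and nucleus after growth factor signals, and is known as a regulator of Fos and of genes of the endoplasmic reticulum stress response. In tetracycline-inducible systems doxycycline switches on a transgene, and the tetracyclines also act on mitochondrial translation. Cortical thymic epithelial cells support the early steps of T cell development and present self peptides to immature thymocytes.

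Levels are log2 processed intensities relative to the 75th percentile of each array, so that 0 is the level of that percentile and a step of 1 is a 2-fold difference. A gene was called when its adjusted p in limma was under 0.05 over all 18441 genes tested, each represented by its brightest probe. The treated arrays lay in 1 row of the slide and the untreated arrays in the other, so slide row and treatment cannot be told apart. Between 43424 and 45156 probes were well above background on the treated arrays, against 39578 to 40759 on the untreated arrays, and the dimmest signal accepted as above background was 20.3 to 22.5 against 29.8 to 41.0 intensity units. Replicate arrays of a group correlated across genes at 0.992 to 0.997. A local defect on the untreated δ replicate 1, where the median log2 difference from its replicate was -1.47, took out 2603 probes for all arrays. Of 18 cortical thymic epithelial markers 13 were measured, among them Foxn1, Prss16, Ccl25 and Krt8; Psmb11, the defining cortical proteasome subunit, Enpep and Il7 were not well above background on both arrays of any group, and Ly75 and Ctsl lay in the defect. The general epithelial markers Epcam and Cdh1 were likewise not well above background.

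Doxycycline went with higher levels of 512 genes and lower levels of 332 genes over both lines. The called genes were 844, or 4.58% of those tested, with 2.78% higher and 1.8% lower, and 60.7% of the calls were rises. Changes were mostly modest: the median size of a called change was 0.52 log2, the smallest 0.29, and 69 genes passed 2-fold, 45 of them higher and 24 lower. All 844 called genes moved the same way in both lines with treated and untreated arrays apart in each line, which the test largely requires; 21.4% of all genes tested were apart in the same direction in both lines. Of the calls, 736 were well above background on all 8 arrays. The count rested on all arrays together: leaving out any 1 array gave between 129 calls (without treated δ replicate 2) and 687 (without untreated δ replicate 1). The counts were 151 without treated δ replicate 1, 199 without treated β replicate 2, 259 without untreated δ replicate 2, 313 without untreated β replicate 1, 389 without untreated β replicate 2 and 405 without treated β replicate 1. Of the 844, 105 were called in all 8 of these fits.

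**Figure D1:**
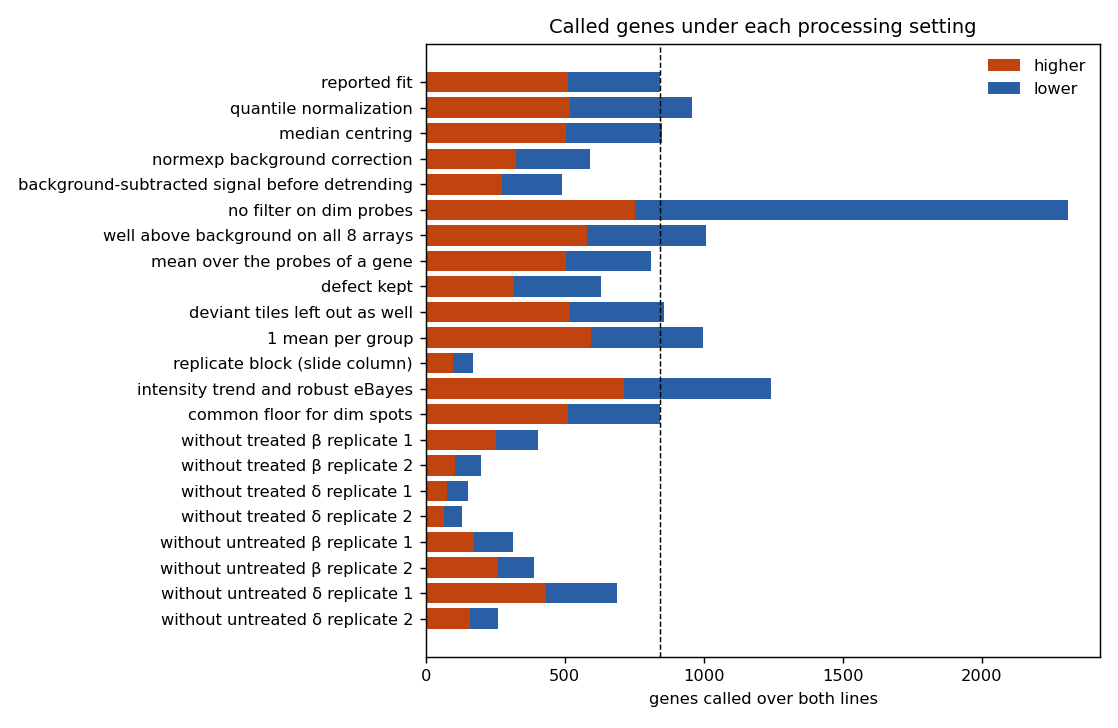
Genes called over both lines (higher in orange, lower in blue) in the reported fit, marked by the dashed line at 844, and in each alternative. The counts run from 129 without treated δ replicate 2 to 2312 with no filter on dim probes.

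**Figure D2:**
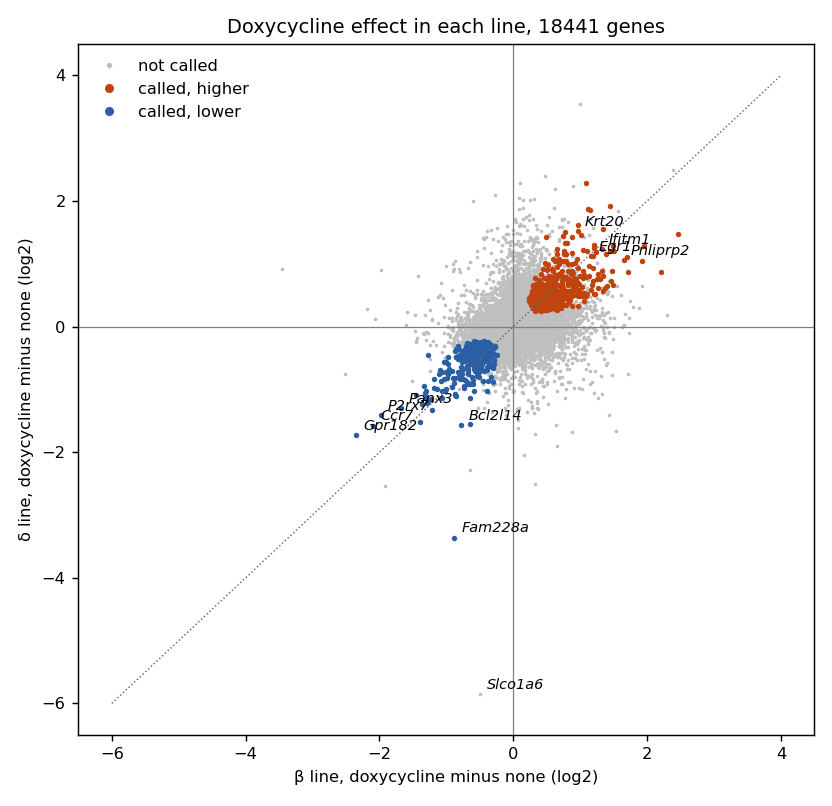
Change with doxycycline in the β line (horizontal, log2) against the change in the δ line (vertical, log2) for each of the 18441 genes, with the 844 called genes in colour and equality as a dotted line. The called genes lie in the 2 quadrants where both lines move the same way, with Gpr182 and Ccr7 at the lower end, and Slco1a6 has the largest fitted fall of the δ line and a small one in the β line.

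Among called genes above background on all 8 arrays, the 4 largest falls were in receptors and channels for chemokines and extracellular nucleotides, Gpr182, Ccr7, P2rx7 and Panx3, although the list they belong to had as many members above 0 as below. Gpr182, an atypical receptor that scavenges chemokines, stood at -1.18 and -1.74 on the treated β arrays against 0.73 and 1.05 on the untreated ones, and at -0.17 and -0.29 against 1.56 and 1.45 in the δ line. All 4 treated arrays were below all 4 untreated arrays, and the fall was -2.04 ± 0.17 log2 (SE), or 4.12-fold, with an adjusted p of 0.00328.

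Ccr7, the receptor that guides T cells and dendritic cells towards the chemokines of the lymph node and thymic medulla, read -0.3 and -0.45 on the treated β arrays and 1.61 and 1.82 without the drug. In the δ line both treated arrays read -0.39 and both untreated arrays 1.18. The groups did not overlap, and the fall of -1.83 ± 0.12 log2 had an adjusted p of 0.00169. A second Ccr7 probe fell by 2.29 on the log2 scale.

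P2rx7, a cation channel opened by extracellular ATP, was at -0.88 and -1.07 with doxycycline and 1.01 and 1 without it in the β line, and at 0.25 and 0.23 against 1.69 and 1.62 in the δ line. The treated arrays were again the low ones in each line, with a change of -1.7 ± 0.12 log2 and an adjusted p of 0.0023, and its other 2 probes gave -1.65 and -1.79. Panx3, a pannexin channel through which cells release ATP, read -3.82 and -3.8 against -2.05 and -2.21 in the β line and -2.85 and -3.1 against -1.57 and -1.77 in the δ line. Its change was -1.49 ± 0.11 log2 with an adjusted p of 0.00234. P2ry2, a G protein-coupled receptor for ATP and UTP, fell less, by 0.52 on the log2 scale with an adjusted p of 0.0334. In the list of chemokine and purinergic receptors and channels these 5 of 26 measured genes were called lower and 0 higher, 19.2% against 4.58% of all genes. This list, like the others, was written with earlier results of these data known, so its share of calls is a description only. The median of the list was 0.03 log2, as over all genes, and between -0.04 and 0.07 in the alternative fits, with 13 members on each side of 0. With any 1 array left out, 4 members were called lower.

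Genes of the cornified envelope and keratins made up the next group, with 5 of 26 measured members lower and 1 higher. Padi3, a peptidylarginine deiminase that modifies structural proteins of hair and epidermis, read -0.25 and -0.43 on the treated β arrays, 0.77 and 0.97 on the untreated β arrays, 0.4 and 0.52 on the treated δ arrays and 1.78 and 1.81 on the untreated δ arrays. Within each line the treated arrays were the lower pair, and the change of -1.27 ± 0.08 log2 had an adjusted p of 0.00169. Krt23 changed by -0.98 ± 0.13, Ivl (involucrin, a scaffold of the cornified envelope) by -0.91 ± 0.12, Krt19 by -0.84 ± 0.15 and Evpl (envoplakin) by -0.73 ± 0.09 log2, with adjusted p between 0.00992 and 0.0241. Without treated δ replicate 1 the adjusted p of Krt23 was 0.05, and the call of Krt19 was lost in 7 of the 8 fits without 1 array.

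Krt20, a keratin of simple epithelia, went the other way. Its level was -3.49 and -3.19 on the treated β arrays against -4.23 and -4.37, and -2.66 and -2.79 on the treated δ arrays against -4.36 and -4.12. The rise was 1.24 ± 0.14 log2 with an adjusted p of 0.00734, and Krt20 was also called in each line alone. With normexp background correction, which models the background of each array, the rise was 0.81 and still called. The list held 23.1% called genes, against 4.58% of all genes, and had a median of -0.13 log2. Its other keratins, Krt5, Krt7, Krt8, Krt14 and Krt18 among the epithelial markers, were not called, with values from -0.21 to 0.51.

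The remaining named falls were Shox2, a homeobox factor (-1.3 ± 0.12), Mmrn1, multimerin (-1.27 ± 0.1), the kinase Sbk3 (-1.25 ± 0.08), Tns4, a tensin of focal adhesions (-1.23 ± 0.11), Tex33 (-1.19 ± 0.09), Bcl2l14 of the BCL2 family (-1.17 ± 0.17) and Klhl30 (-1.17 ± 0.12), all in log2. Bcl2l14 had the widest gap between lines among them, -0.78 in the β line and -1.57 in the δ line, but this difference did not pass the test between lines, and its call was lost without treated δ replicate 2, where the adjusted p was 0.0588, and with the replicate block. With normexp background correction Bcl2l14 changed by -0.61 and Mmrn1 by -0.72, both still called. The other 11 of the 12 named falls were called in every alternative fit that tested them. The pattern across the 8 arrays most like the mean of the 12 falls, after centring each line, was that of Col7a1 (r = 0.9973), Camk2b (0.9957) and Manf (0.9955), given as a description of genes that differ by treatment.

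**Figure D3:**
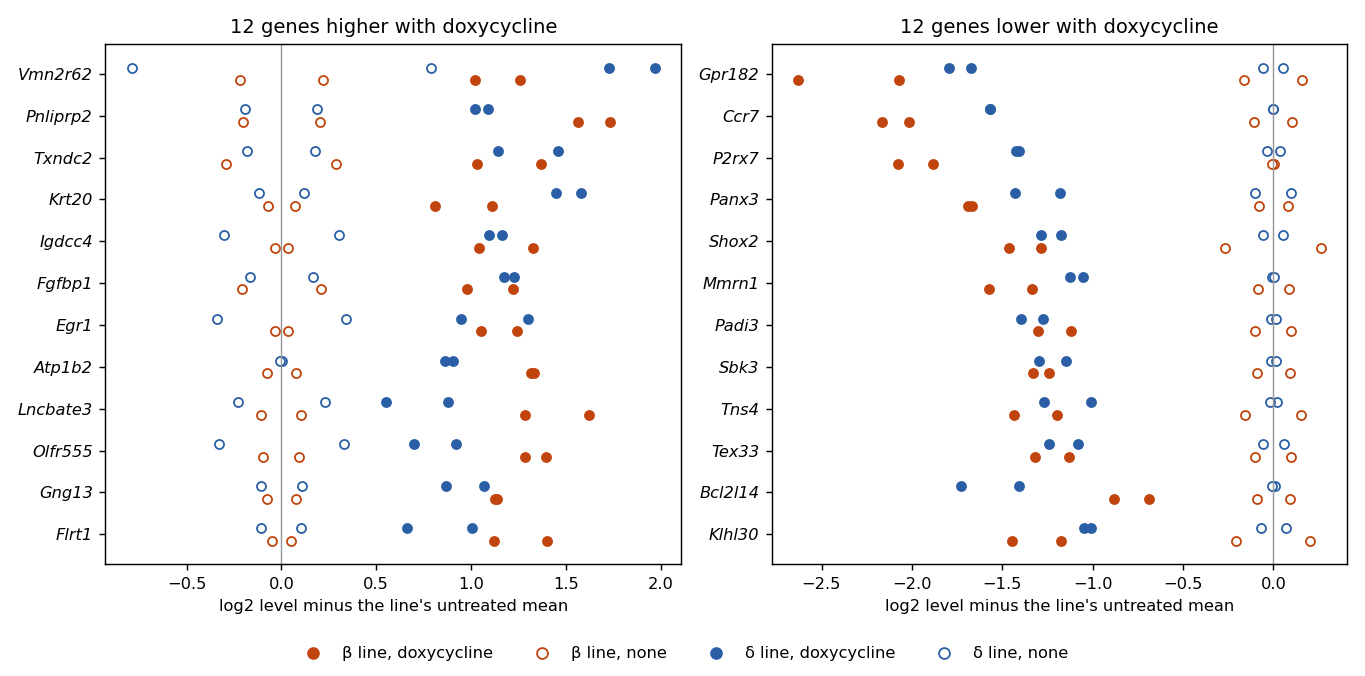
Level on each array of the 12 named rises (left) and 12 named falls (right), in log2 relative to the mean of the untreated arrays of the same line; filled points are treated and open points untreated arrays, β in orange and δ in blue. In every gene shown the filled points of a line lie to 1 side of its open points, and Vmn2r62 has a wide spread between the untreated δ arrays.

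Among the rises, immediate early genes were the group with the best known members. Egr1, a zinc finger factor switched on within minutes of mitogens or stress, read -0.31 and -0.5 on the treated β arrays against -1.59 and -1.52, and -0.56 and -0.21 on the treated δ arrays against -1.85 and -1.17. The treated arrays were the higher ones in each line, and the rise was 1.14 ± 0.15 log2 with an adjusted p of 0.0117. Without treated δ replicate 2 the adjusted p was 0.051.

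Fos, a subunit of the AP-1 factor, stood in the β line at 0.35 and 0.37 with doxycycline and -0.63 and -0.59 without it. In the δ line it stood at 0.12 and 0.49 against -0.71 and -0.57. No treated array overlapped an untreated one, and the rise was 0.96 ± 0.09 log2 with an adjusted p of 0.005, called in every alternative fit. Dusp1, a phosphatase that switches off MAP kinases, rose by 0.6 ± 0.1. Of the same list Fosl1, another AP-1 subunit, fell by 0.45 and Myc by 0.36 on the log2 scale. Thus 3 of 29 measured members were higher and 2 lower, 17.2% in all, against 4.58% of all genes. The second, dimmer Myc probe changed by 0.03 log2, and the calls of Fosl1 and Myc were each lost in 7 of the 8 fits without 1 array.

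The other large rises were a mixed set. Pnliprp2, a pancreatic-type lipase, read -2.62 and -2.79 against -4.56 and -4.15 in the β line and -0.42 and -0.35 against -1.63 and -1.25 in the δ line. It was high on all treated arrays relative to its own line, by 1.35 ± 0.16 log2. Atp1b2, a beta subunit of the sodium pump, read -1.32 and -1.3 against -2.71 and -2.56, and 0.83 and 0.79 against -0.07 and -0.08, a rise of 1.11 ± 0.1 log2. Fgfbp1, a carrier that releases fibroblast growth factors from the matrix, rose by 1.15 ± 0.12 with a second probe at 1.17. Flrt1, an adhesion protein with leucine-rich repeats, rose by 1.04 ± 0.13, while its second probe changed by 0.31. Gng13, a G protein gamma subunit of sensory cells, rose by 1.05 ± 0.09, the adhesion family gene Igdcc4 by 1.16 ± 0.14 and the thioredoxin of sperm Txndc2 by 1.25 ± 0.16 log2. With normexp background correction Txndc2 was at 0.71 and still called.

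The largest named rise by size, the vomeronasal receptor gene Vmn2r62, was the least steady. It read -0.99 and -0.75 on the treated β arrays against -1.79 and -2.23, and -0.89 and -0.65 on the treated δ arrays against -3.41 and -1.83. The untreated δ replicate 1 alone was at -3.41. The rise of 1.5 ± 0.33 log2 had an adjusted p of 0.0457 and was lost in 13 of 21 alternative fits, 7 of them with 1 array left out. The olfactory receptor gene Olfr555 (1.07 ± 0.17) and the long non-coding RNA Lncbate3 (1.09 ± 0.19) lost their calls in 6 and 7 alternatives and were at 0.53 and 0.67 with normexp background correction. Probes of receptor families can also bind near-identical copies, and this was not tested. The remaining 8 of the 12 named rises, other than these 3 and Egr1, were called in every alternative fit that tested them. The patterns most like the mean of the 12 rises were those of H2-Bl (r = 0.9957), Zfp26 (0.9912) and Cryl1 (0.9911).

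Dim genes gave bounds rather than measured folds. Ovol3 was well above background on the 4 treated arrays and on 0 untreated arrays, and was at least 1.72-fold higher with doxycycline. By the same measure Prss38, a serine protease, was at least 1.66-fold higher and Sorl1, a sorting receptor, at least 1.56-fold higher. Fam228a was above background on 2 untreated arrays, both of the δ line, and on 0 treated arrays. Its bound, at least 2.2-fold lower, is a mean over both lines that rests on the δ arrays. The fitted change was -3.36 log2 in the δ line and -0.88 in the β line. No β array was above background, so the β line gives no fold and a shared fall is not shown. The bound sets the dimmer arrays at the weakest signal accepted there as above background or at their own signal, whichever was higher. The call of Fam228a was lost in 12 of 20 alternative fits, those of Prss38 in 5 of 20, Sorl1 in 5 of 19 and Ovol3 in 2 of 20. Such cases were uneven. Leaving out symbols that only number a locus, 42 called genes were above background on no untreated array and 1 on no treated array. The untreated arrays had the higher limit.

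**Figure D4:**
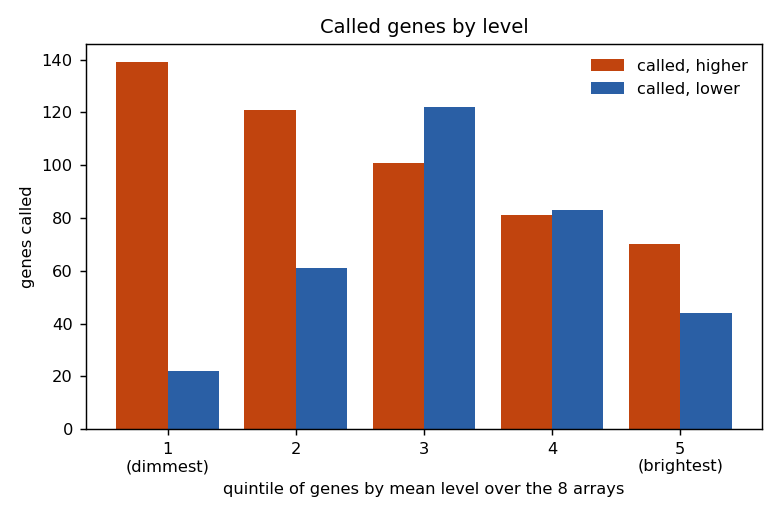
Genes called higher (orange) and lower (blue) with doxycycline, counted in each quintile of the 18441 genes ordered by mean level over the 8 arrays. In the dimmest quintile 139 calls were higher and 22 lower, and in the middle quintile 101 were higher and 122 lower.

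The balance of rises and falls moved with the level of the genes. In the dimmest quintile 86.3% of the calls were rises and the median change of all its genes was 0.12 log2. In the middle quintile 45.3% of 223 calls were rises with a median of -0.01, and in the brightest quintile 61.4% of 114 were rises with a median of 0.04. Without a filter on dim probes 32.5% of calls were rises, and with the defect kept 50.2%. The part of the lower background of the treated arrays in the share of rises was not tested.

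In the integrated stress response 6 genes rose and 0 fell. ATF4 is the factor whose translation increases when this response is active, and it drives amino acid synthesis and transport. Of 25 measured members 6 were called higher and 0 lower, 24% against 4.58% of all genes, 22 of the 25 lay above 0, and the median was 0.18 log2 (0.19 in the β line and 0.2 in the δ line). Slc7a11, the cystine importer, read -2.1 and -1.95 against -2.67 and -2.37 in the β line and -2.94 and -3.11 against -4.17 and -3.87 in the δ line. The treated arrays were higher in each line, by 0.74 ± 0.14 log2 with an adjusted p of 0.0286, and its second probe gave 0.89.

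Asns, asparagine synthetase, read 6.77 and 7.01 against 6.26 and 6.56, and 6.47 on both treated δ arrays against 5.62 and 5.99. Its rise was 0.57 ± 0.12 log2 with an adjusted p of 0.0379, but a second, dimmer probe changed by 0.1 ± 0.1 and the call was lost in 10 of 21 alternative fits. Atf4 itself rose by 0.44, Ppp1r15a, which restarts translation, by 0.42, Trib3 by 0.38 and Vldlr by 0.35 log2. Other members did not pass: Fgf21 was at 0.55, Cebpb at 0.33, Ddit3 at 0.1 and Atf3 at 0.11. The group was fragile, since 0 members were called without treated β replicate 2, without either treated δ array, without untreated β replicate 1 or without untreated δ replicate 2; 2 were called without treated β replicate 1 or untreated δ replicate 1, and 5 without untreated β replicate 2.

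Promoter sequences were read for the genes that moved together, from a RefSeq table of mouse assembly GRCm38.p6 that held 643 of the 844 called genes and 52 of the 80 named ones. The 250 bases before the annotated start were searched on both strands for the AP-1 site TGANTCA, the cyclic AMP response element TGACGTCA and the C/EBP-ATF element TGATGNAA, which do not contain one another. Promoters of 2 ATF4 list members that rose and of Dusp1 are shown because they hold a C/EBP-ATF or cyclic AMP element, and those of 3 genes that fell because they hold an AP-1 site. The named rises Fas and Ovol3 hold an AP-1 site as well and are not shown, and P2rx7 has a further annotated start whose promoter had no match. Also not shown are the rises Vldlr, Ovol3 and Lncbate3 and the fall Mmrn1, which hold a C/EBP-ATF element. The same holds for the rises Ppp1r15a and Vmn2r62, which hold a cyclic AMP element. Promoters of a single chromosome were left out when genes were listed here, so these lists are not complete. The shares given below include that chromosome. The promoters shown lie at chr3:50443614-50443863 (minus strand), chr6:7693210-7693459 (minus strand), chr17:26508473-26508722 (minus strand), chr5:30012864-30013113 (plus strand), chr3:92573736-92573985 (minus strand) and chr5:122643677-122643926 (plus strand), each given 5′ to 3′ with matches in capitals.
Slc7a11: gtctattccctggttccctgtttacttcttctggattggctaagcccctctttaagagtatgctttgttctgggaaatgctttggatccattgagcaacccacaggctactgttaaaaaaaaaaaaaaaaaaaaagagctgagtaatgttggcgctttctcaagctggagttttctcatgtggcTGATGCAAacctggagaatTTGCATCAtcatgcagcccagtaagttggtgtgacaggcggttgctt
Asns: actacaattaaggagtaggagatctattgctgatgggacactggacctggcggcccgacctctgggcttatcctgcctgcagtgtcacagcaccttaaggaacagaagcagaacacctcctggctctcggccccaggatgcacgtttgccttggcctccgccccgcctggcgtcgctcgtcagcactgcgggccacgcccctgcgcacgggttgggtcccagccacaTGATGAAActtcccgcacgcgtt
Dusp1: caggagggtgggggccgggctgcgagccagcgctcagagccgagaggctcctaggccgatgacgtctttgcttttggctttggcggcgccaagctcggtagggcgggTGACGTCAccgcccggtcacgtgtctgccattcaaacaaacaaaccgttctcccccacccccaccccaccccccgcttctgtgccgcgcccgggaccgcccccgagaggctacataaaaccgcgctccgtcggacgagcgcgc
Il6: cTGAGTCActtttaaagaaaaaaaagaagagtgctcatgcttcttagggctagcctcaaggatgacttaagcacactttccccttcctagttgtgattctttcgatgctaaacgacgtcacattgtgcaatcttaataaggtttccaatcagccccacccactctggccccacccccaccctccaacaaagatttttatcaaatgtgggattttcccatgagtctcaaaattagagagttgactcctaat
Ivl: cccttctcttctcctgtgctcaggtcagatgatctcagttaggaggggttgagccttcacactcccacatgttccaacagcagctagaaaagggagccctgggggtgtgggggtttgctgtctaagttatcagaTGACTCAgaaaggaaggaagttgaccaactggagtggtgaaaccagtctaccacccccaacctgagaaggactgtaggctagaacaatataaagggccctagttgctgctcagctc
P2rx7: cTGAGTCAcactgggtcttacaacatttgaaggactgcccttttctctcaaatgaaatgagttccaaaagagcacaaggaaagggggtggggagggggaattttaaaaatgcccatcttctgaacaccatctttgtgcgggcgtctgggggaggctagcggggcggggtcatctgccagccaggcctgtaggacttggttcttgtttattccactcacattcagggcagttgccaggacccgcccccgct

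Slc7a11 had 2 matches to the C/EBP-ATF element, starting 66 and 47 bases upstream, and Asns had 1 starting 23 bases upstream. Of 26 promoters of the ATF4 list 7 (26.9%) held this element, against 2.69% of promoters of tested genes and 3.45% of all 32841 in the table; the list was made of genes known for ATF4, so this is no separate evidence. Among the called genes as a whole the element was no more frequent, 2.75% of 509 promoters of rises and 1.75% of 342 of falls. The AP-1 site was in 38 of 342 promoters of genes called lower (11.1%), in 5.7% of those called higher, in 5.76% of those tested and in 6.75% of all. The cyclic AMP element was in 1.38% of promoters of rises, 0.292% of falls and 2.12% of those tested. For the E-box these shares were 7.07%, 5.85% and 7.22%, in that order. They were 49.3%, 45% and 46.8% for the GC box and 33.2%, 35.7% and 34.9% for the CCAAT box. The TATA box gave 9.04%, 10.8% and 9.71%, and the CArG box 1.38%, 1.46% and 1.29%. These shares are descriptions without a test, and a match of letters is not a binding site.

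Genes for chaperones and export factors of the endoplasmic reticulum, which belong to its unfolded protein response, gave 5 members called lower and 0 higher of 24 measured, 20.8% against 4.58% of all genes. The other 19 did not pass, 7 of the 24 lay above 0, and the median was -0.12 log2, with -0.05 in the β line. Manf, a secreted factor of this response, read 3.81 and 3.78 against 4.34 and 4.43 in the β line and 3.38 and 3.4 against 3.88 and 3.95 in the δ line. Treated arrays were the lower ones, the change was -0.55 ± 0.07 log2 with an adjusted p of 0.00746, a second probe gave -0.5, and the call held in every alternative fit. Sec24d, a coat protein of export vesicles, changed by -0.53, the co-chaperones Dnajc3 and Sdf2l1 each by -0.41, and Edem1, which sends misfolded glycoproteins to degradation, by -0.31 log2. The fits without 1 array called between 1 and 3 members lower.

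Cholesterol synthesis genes lay mostly below 0. Of 23 measured members 22 lay below 0, and the median was -0.2 log2 against 0.03 for all genes. Called lower were 4 and higher 0, 17.4% against 4.58% of all genes. Fdps, farnesyl diphosphate synthase, read 3.22 and 3.4 against 3.82 and 4.14 in the β line and 2.53 and 2.64 against 3.33 and 3.26 in the δ line. The fall of -0.69 ± 0.09 log2 had an adjusted p of 0.0114 with no overlap between treated and untreated arrays of a line. Nsdhl fell by 0.6 and Cyp51 by 0.45 on the log2 scale. Ebp, the exception above 0, was at 0.31 and did not pass. The fits without 1 array called between 0 and 3 members, with 0 without treated δ replicate 1 and without treated δ replicate 2.

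**Figure D5:**
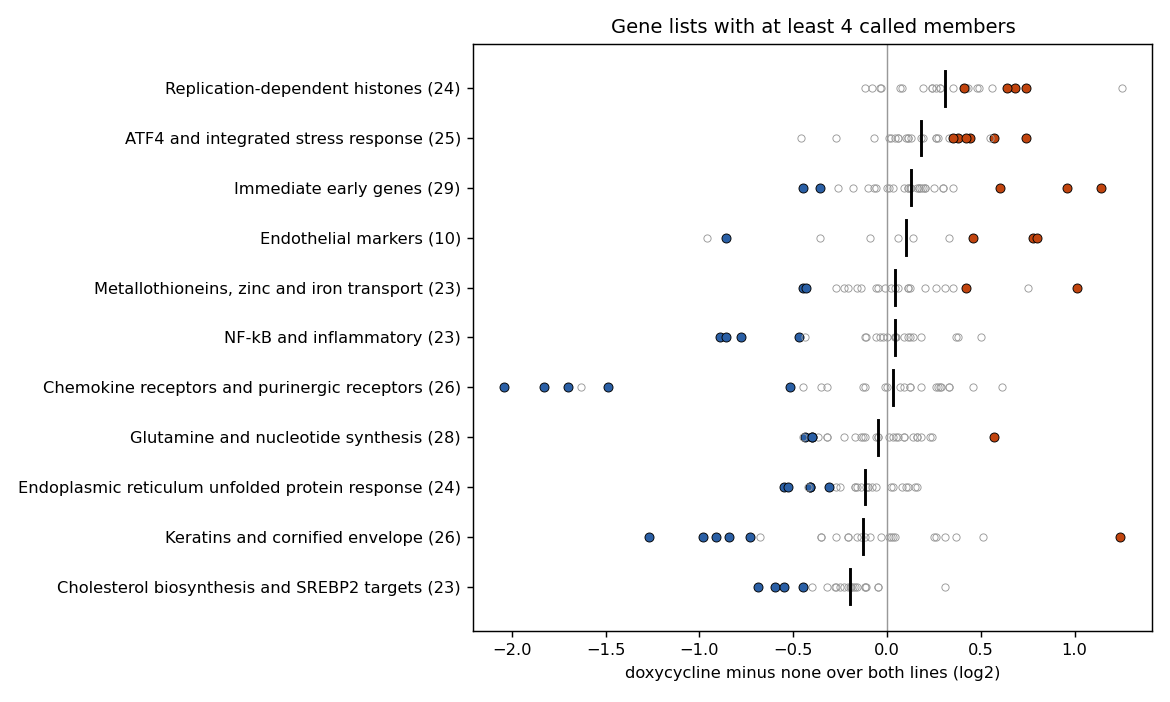
Change with doxycycline over both lines (log2) of each measured member of the 11 gene lists with at least 4 called members; filled points are called genes, open points are not, the bar is the list's median and the number in brackets is the count measured. The cholesterol list has its median at -0.2 and the histone list at 0.31.

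Replication-dependent histone genes had the highest median of the lists shown, 0.31 log2, with 20 of 24 above 0. Of these 24, 4 were called higher and 0 lower, 16.7% against 4.58% of all genes. H2bc4 read 1.11 and 1.39 against 0.31 and 0.54 in the β line and 2.33 on both treated δ arrays against 1.61 and 1.73. H1f3 read 1.19 and 1.28 against 0.61 and 0.47, and 1 and 0.92 against 0.28 and 0.33. The treated arrays were higher in each line for both genes, by 0.74 ± 0.1 and 0.68 ± 0.07 log2, with adjusted p of 0.00994 and 0.00584. H4c4 rose by 0.64 and H4c9 by 0.41. Slbp, which binds the stem-loop at the end of histone messages, fell by 0.6 on the log2 scale, but its call was lost in 10 of 21 alternative fits, 7 of them with 1 array left out. Each fit without 1 array called 2 histone genes. Near-identical histone copies may share a probe, which was not tested. Among 32 measured genes of the G2 and M phases 3 were called lower and 0 higher, 9.38% against 4.58% of all genes, and the fits without 1 array called between 0 and 4. Cdc25b, a phosphatase that starts mitosis, was at -0.73 ± 0.11, its second, dimmer probe gave -0.28 ± 0.14, and its call was lost in 5 of 21 alternative fits. Hmmr was called lower at -0.49, but its other 2 probes gave 0.48 and 0.16, so its direction is not settled.

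Inflammatory and interferon genes were uneven. Of 23 measured NF-kB and inflammatory genes 4 were called lower and 0 higher (17.4% against 4.58% of all genes), with the list's median at 0.04. Il6, an inflammatory cytokine, read -2.38 and -2.24 against -1.19 and -1.24 in the β line and -2.1 and -2.25 against -1.49 and -1.47 in the δ line. It was lower on all 4 treated arrays, by -0.89 ± 0.1 log2 with an adjusted p of 0.00734, and a second probe gave -1.2. The chemokine genes Ccl7, Cxcl1 and Ccl2 fell by 0.86, 0.78 and 0.47 on the log2 scale. Of 26 measured interferon-stimulated genes only Ifitm1 and Oasl1 were called (7.69% against 4.58% of all genes). Ifitm1, a membrane protein that restricts viral entry, read -4.17 and -4.19 against -5.45 and -5.55, and -1.66 and -1.62 against -2.96 and -2.78. Neither untreated β array was well above background, so its rise is given as a bound, at least 2.22-fold, with an adjusted p of 0.00169. Oasl1 fell by 0.82 on the log2 scale. H2-Bl was the single called gene of 24 measured MHC and antigen processing genes, at 0.91 ± 0.08. That share of 4.17% is near the 4.58% of all genes.

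Transporters for zinc and iron split evenly, with 2 of 23 measured genes higher and 2 lower (17.4% called, against 4.58% of all genes). Slc39a4, the zinc importer of the gut, read 1.66 and 1.6 against 0.24 and 0.52, and 0.64 and 0.68 against -0.14 and -0.08. Its treated arrays were higher in each line, by 1.01 ± 0.12 log2 with an adjusted p of 0.00746. Slc11a2 rose by 0.42, while Slc39a10 and the transferrin receptor Tfrc fell by 0.45 and 0.43 on the log2 scale. The further probes of these 3 genes did not bear the changes out: 1 of Slc39a10 gave 0.34, 1 of Tfrc 0.09 and 3 of Slc11a2 between -0.2 and 0.06. The p53 targets Pmaip1 and Fas were called higher, at 0.61 and 0.51, among 25 measured, and the glycolysis genes Hk2 and Pfkfb4 lower, at -0.58 and -0.54, among 25. In both lists 8% were called, against 4.58% of all genes. The calls of Fas, Hk2 and Pfkfb4 were each lost in 7 of the 8 fits without 1 array and that of Pmaip1 in 4, and a second, dimmer Fas probe gave 0.2 ± 0.27 with -0.09 in the δ line.

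No gene was called among 33 mitochondrial ribosomal proteins (median 0.02), 40 nuclear-encoded subunits of the respiratory chain and ATP synthase (0.1), 14 genes of the mitochondrial unfolded protein response (0.03), 33 cytosolic ribosomal proteins (0.14) or 15 fatty acid synthesis genes (-0.13). In limma an unadjusted p under 0.05 was reached by 5, 12, 1, 7 and 7 of them, in that order, and by 4202 of all genes. A missed threshold does not show that they were unchanged.

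Gtf2i and its relatives were not called over both lines. The brightest Gtf2i probe read 4.61 and 4.69 on the treated β arrays, 4.42 and 4.66 without the drug, 5.32 and 5.29 on the treated δ arrays and 5.23 and 5.1 without it. The pairs overlap in the β line, and the change was 0.12 ± 0.08 log2 with an adjusted p of 0.393. A second probe gave 0.12. The third and dimmest gave 1.31 in the β line and 0.18 in the δ line, with an adjusted p over all probes of 0.138. The sources used here do not say whether a probe lies in the introduced sequence, so these values do not check the induction. Gtf2ird1 was at 0.19 ± 0.08 and Gtf2ird2 at -0.09 ± 0.1. Of 18 measured partners of TFII-I the kinase gene Prkg1 alone was called, at 0.38, which is 5.56% against 4.58% of all genes, and this call was lost in all 8 fits without 1 array.

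Markers of other cell types were read on the same arrays. Of 10 measured endothelial markers 4 were called, 40% against 4.58% of all genes. Kdr (0.78), Egfl7 (0.46) and Esam were higher and Plvap (-0.86) lower. Esam was not well above background on the untreated β arrays and was at least 1.67-fold higher. The summed level of the 10 markers, in units of the 75th percentile, was 13.4 to 22.1 on treated and 10.4 to 18.5 on untreated arrays. Of 12 myeloid markers Tyrobp (-0.68) and Fcgr3 were called lower (16.7%), with sums of 122 to 185 against 134 to 172. Fcgr3 was well above background on 2 treated and 2 untreated arrays, so no fold is given, and its call was lost in 11 of 20 alternative fits. Fibroblast markers had 2 of 14 higher (14.3% against 4.58% of all genes), Snai2 (0.68) and Acta2 (0.41), with sums of 716 to 770 against 671 to 707. The call of Acta2 was lost in 7 of the 8 fits without 1 array. Over all alternative fits its values went down to 0.16 log2, and its further probes gave 0.18 ± 0.08 and 0.57 ± 0.11. Thymocyte markers had 1 of 12 higher (8.33% against 4.58% of all genes), Tcf7 at 0.42, with sums of 19.6 to 35.1 against 17.6 to 22.7. The call of Tcf7 was lost in 14 of 21 alternative fits, quantile normalization and all 8 fits without 1 array among them, while Ptprc, Cd3g and Rag1 were not above background on both arrays of any group. For cortical markers the sums were 79.2 to 97.8 against 73 to 103 and for medullary markers 24.9 to 59.5 against 25 to 64.2, with 0 calls in either list and 1 and 2 members at an unadjusted p under 0.05 in limma. All these ranges take in arrays of both lines, so they mix differences between lines with those between treatments. The part of these markers in the other changes was not tested, and fewer cells of a type and less RNA per cell cannot be told apart.

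The contrasts of the β and δ lines share no array, though they share the slide and the estimate of spread. In the β line 283 genes (1.53%) were called, 164 higher and 119 lower, and in the δ line 50 genes (0.271%), 20 higher and 30 lower. Both lines called 31 genes, 11% of the β calls and 62% of the δ calls, and 29 of the 31 had the same sign. Genes called in the β line, followed on the δ arrays, kept their sign in 143 of 164 rises (87.2%, where 55.8% of all genes were above 0) with a median of 0.42, and in 115 of 119 falls (96.6%, against 44.2% of all genes below 0) with a median of -0.46. Those of the δ line kept their sign on the β arrays in 18 of 20 rises and 27 of 30 falls, both 90%, with medians of 0.65 and -0.84. Of all genes 55.1% were above 0 in the β line and 44.9% below 0. The sizes in the line that did not choose the genes were smaller: the 164 β rises had a median of 0.87 in the β line itself. Over all genes the changes in the 2 lines correlated at r = 0.32, and 61.1% had the same sign, which describes genes that share arrays and are not independent.

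Most shared calls came from pooling the lines, as 642 of the 844 were called in neither line alone. A difference between lines passed for 1 gene, 0.00542% of those tested, and 1676 genes (9.09%) had an unadjusted p under 0.05 in limma for it. These counts moved with single arrays: the β count ranged from 2 (without either treated δ array) to 312 (without untreated β replicate 2), and the δ count from 1 (without either treated β array) to 880 (without untreated δ replicate 2). The count for the difference ranged from 6 (without treated β replicate 2) to 334 (without untreated δ replicate 2).

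Further probes of the called genes were a check with other sequences on the same arrays. Of 189 further probes of 150 genes called higher, 162 (85.7%) were also higher and 131 (69.3%) higher in both lines, and of 136 probes of 108 genes called lower, 96 (70.6%) were lower and 82 (60.3%) lower in both lines. For uncalled genes whose representing probe was above 0, 61.1% of further probes were above 0, and where it was below 0, 50.7% were below it. The medians were smaller than for the representing probes, 0.2 against 0.46 and -0.2 against -0.49.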

How the data were processed

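Total RNA (200 ng) was labelled with Cy3 and hybridised to one-colour Agilent mouse arrays on 1 slide, per the labels' protocols. Per the file headers, the authors used Agilent Feature Extraction 11.5.1.1. It wrote an intensity per spot on a linear scale, with background subtraction and detrending inside the array but no step across arrays, and these values were deposited. The root mean square of the recorded multiplicative detrending was 0 on 3 treated arrays and between 0.0671 and 0.126 on the other 5, so this step was uneven between treatments. The deposited flags for spots above background, saturated or outlying come from the same software, and 0 probes were saturated.

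Spots flagged as outliers and control spots were left out, log2 intensities were averaged per probe, and levels were set relative to the 75th percentile of the array. Of 56605 probes, 98 had no usable spot on some array and 2603 lay in the defect (rows 161 to 248, columns 65 to 96). Names came from a RefSeq gene table matched on transcript accessions: 32994 probes were named and 23611 were not. A probe was kept if both arrays of some group flagged it well above background, and each gene took its brightest probe. The fit used limma 3.58.1 in R 4.3.3 (line plus doxycycline, 5 residual degrees of freedom) with Benjamini-Hochberg adjustment over all genes and a threshold of 0.05. Effects per line and their difference came from a fit with 1 mean per group. Tests were tested on simulated data.

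Genes were named by rule: up to 12 rises and 12 falls, the largest called over both lines that were above background on all 8 arrays with treated and untreated arrays apart in each line and without numbered-locus symbols; up to 3 bounds per direction; up to 2 called members per direction of each list; the Gtf2i family; called genes whose difference between lines passed; and 3 genes most like the mean pattern of the rises and of the falls. Further list members and Slco1a6 were named after their values were seen. The members and the 35 lists were chosen with earlier results of these data known. Replicate numbers were not taken as pairs. Deviations from group means correlated at 0.04 to 0.07 within a slide column. With 2 arrays a group the deviations mirror each other, and a low correlation cannot exclude a pairing. Alternatives covered scaling, background, filters, probe summary, defect, model and each array left out. Centring on spike-in probes was not run because those probes read near background. Some list members are not reported here.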

Additional observations from a re-analysis of the deposited data

Results flagged for a closer look

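Slco1a6, an organic anion transporter gene, was the single gene whose doxycycline effect differed between lines by limma, by -5.35 log2 (δ minus β). It read -2.41 and -2.36 on the untreated δ arrays and between -8.28 and -7.36 on the other 6, where it was not well above background. In the δ line it was lower with doxycycline by at least 3.53 on the log2 scale, against the weakest signal accepted as above background on the treated arrays. The β line gives no fold, the fitted change over both lines was -3.17 ± 0.96 with an adjusted p of 0.104, and the fit of probes above background on all 8 arrays did not hold it.

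Probes without a gene name were outside the comparisons above. Of 16269 such probes kept, 246 (1.51%) were called over both lines, 156 higher and 90 lower, beside 660 of 25989 named probes (2.54%) in the same fit of all probes. Groups of 2 arrays are too small for a check of single outlying samples.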

How the results depend on the processing

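The 844 calls over both lines (512 higher, 332 lower) kept their direction except for 2 genes with normexp background correction, 4 with the mean over probes, 3 with the defect kept, 1 without treated β replicate 1 and 1 without treated β replicate 2. Background-subtracted signal before detrending gave 489 calls (276 higher, 213 lower), normexp 325 higher, the defect kept 317 higher, no filter on dim probes 2312 calls with 1560 lower, and the intensity trend with robust eBayes 531 lower. With 1 array left out the counts were 129 to 687 calls, 67 to 434 higher and 62 to 253 lower. The replicate block (slide column) gave 169 calls, 98 higher and 71 lower, and 168 of them were among the 844. Whether slide columns pair the samples is not settled.

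The 283 calls of the β line became 77 with background-subtracted signal, 41 without a filter, 609 with probes above background on all 8 arrays and 47 with the defect kept, and 2 to 312 with 1 array left out. The 50 calls of the δ line became 30 with quantile normalization and 23, 1039, 87 and 14 in the same 4 settings, and 1 to 880 with 1 array left out. The difference between lines had 0 calls with probes above background on all 8 arrays and 6 to 334 with 1 array left out. Over 80 named genes, the direction turned for Hmmr, to 0.05 with the mean over probes, and for Fcgr3, to 0.07 with normexp. Lost calls in the same direction were far more frequent than such turns. A common floor for dim spots, chosen after seeing the data, gave 842 calls. Centring on spike-in probes was not run, and normexp used median spot signals. The causes were not tested. The number of arrays, 2 a group, limits the precision, and the smallest called change was 0.29 log2.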
